A study of Homo sapiens with 12 samples.

Results

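The genes described here are 10 human genes of growth factor signalling: the 4 ERBB receptors EGFR, ERBB2, ERBB3 and ERBB4, the insulin and insulin-like growth factor receptors INSR and IGF1R, the docking proteins IRS1 and IRS2, and the fibroblast growth factor receptors FGFR1 and FGFR4. They were taken by symbol as a named list, and all 10 were found among the 19460 genes with deposited RNA levels. The cells were T-47D, an established oestrogen receptor-positive luminal breast cancer line, with the genotype labelled wild type in every group. They received 1 µM palbociclib, an inhibitor of the cell cycle kinases CDK4 and CDK6, or its solvent DMSO for 24 h. Each treatment had 3 biological replicates for polyadenylated RNA and 3 for chromatin accessibility by ATAC-seq, so there were 4 groups of 3 libraries, all from a single cell line grown in medium with serum.

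These receptors are membrane tyrosine kinases. When a ligand activates a pair of receptor molecules, their kinase domains phosphorylate tyrosines that recruit adaptors and start the RAS-MAPK and PI3K-AKT cascades. ERBB2 has no known ligand and ERBB3 has little kinase activity of its own, so that the pair acts together, with ERBB3 as a strong recruiter of PI3K. IGF1R and INSR signal largely through IRS1 and IRS2, and FGFR1 and FGFR4 through the docking protein FRS2. In luminal breast cancer these pathways feed the D-type cyclins that activate CDK4 and CDK6, the kinases that palbociclib inhibits.

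The sequences before the start sites are shown for 4 of the genes: IRS1 and IRS2, because their RNA changed in opposite directions, ERBB2, because its RNA had the largest log2 rise by limma, and EGFR, because its start lies inside an accessible region. Each is the 250 bases before the outermost start of the gene in RefSeq (GRCh38.p14), read 5′ to 3′ on the strand of the gene. Starts further inside these genes are not shown, and which start the cells used was not tested. The ERBB2 window in particular may not be the promoter in use, and it may hold sequence of a neighbouring gene. Capitals mark matches on either strand to the GC box GGGCGG or the E2F motif TTTCCCGC, with overlapping GC boxes counted separately.
IRS1, chr2:226799821-226800070, minus strand: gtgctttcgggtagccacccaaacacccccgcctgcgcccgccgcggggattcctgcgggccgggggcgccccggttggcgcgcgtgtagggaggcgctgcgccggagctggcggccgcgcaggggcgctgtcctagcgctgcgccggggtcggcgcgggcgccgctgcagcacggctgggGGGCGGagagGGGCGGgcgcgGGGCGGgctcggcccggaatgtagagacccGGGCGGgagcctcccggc
IRS2, chr13:109786584-109786833, minus strand: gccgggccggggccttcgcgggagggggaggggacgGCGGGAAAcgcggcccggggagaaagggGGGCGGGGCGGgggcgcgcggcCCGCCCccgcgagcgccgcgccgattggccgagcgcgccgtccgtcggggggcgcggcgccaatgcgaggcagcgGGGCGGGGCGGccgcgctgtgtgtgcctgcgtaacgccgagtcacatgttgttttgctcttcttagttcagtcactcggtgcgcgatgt
ERBB2, chr17:39687844-39688093, plus strand: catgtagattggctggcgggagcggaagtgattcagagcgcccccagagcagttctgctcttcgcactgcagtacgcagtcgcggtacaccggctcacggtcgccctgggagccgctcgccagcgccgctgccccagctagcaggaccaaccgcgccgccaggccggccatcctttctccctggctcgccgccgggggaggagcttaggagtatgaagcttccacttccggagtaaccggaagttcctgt
EGFR, chr7:55018767-55019016, plus strand: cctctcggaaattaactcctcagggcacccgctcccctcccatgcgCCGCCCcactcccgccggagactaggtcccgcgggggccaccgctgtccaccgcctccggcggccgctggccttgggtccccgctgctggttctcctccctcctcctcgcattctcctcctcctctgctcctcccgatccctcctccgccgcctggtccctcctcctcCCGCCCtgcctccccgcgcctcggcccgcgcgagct

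The IRS1 sequence held 4 GC boxes, the IRS2 sequence held 5 GC boxes and 1 TTTCCCGC, the EGFR sequence held 2 GC boxes, and the ERBB2 sequence held neither motif. Among 35116 human promoter windows of the same length, 42.6% had a GC box and 1.39% had TTTCCCGC. RefSeq windows matched 8 of the 10 genes, with 10 windows because EGFR and FGFR4 have an additional start, and ERBB3 and FGFR1 had no entry. The related E2F motif TTTGGCGC (0.55% of all windows) and the FOXO motif TGTTTAC (2.98%) were found in none of these 10 windows. In the printed windows G and C made up 80.8% for IRS1, 76.4% for IRS2, 73.6% for EGFR and 65.6% for ERBB2, beside a median of 58% over all windows, and the 10 windows ran from 38.8% at the second EGFR start to 81.2% at IGF1R. A match is a description of letters and not a bound site.

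The cells had the RNA of a luminal epithelium. All 10 luminal markers (among them ESR1, GATA3, FOXA1, KRT8 and KRT18) were at or above 1 FPKM. FPKM are fragments per kilobase of transcript, with the scaling between libraries as the authors deposited it. The summed level of the luminal markers was 5599 to 6125 FPKM with DMSO and 7522 to 8304 with palbociclib. Of 7 basal and myoepithelial markers only ACTA2 reached 1 FPKM, with KRT5, KRT14 and KRT17 not listed, and of 6 fibroblast markers only COL1A1 did. ACTA2 was at 9.04 FPKM with DMSO and 8.90 with palbociclib, and COL1A1 at 23.7 and 25.1. None of 7 endothelial and immune markers reached 1 FPKM. RNA libraries correlated with others of their group at r = 0.995 to 0.997 across genes and with the other group at 0.971 at most, and ATAC libraries held 12830062 to 18250496 reads in peaks.

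After 24 h of palbociclib, the RNA of ERBB2, ERBB3, IGF1R, IRS1 and FGFR1 was higher and that of IRS2 was lower, while EGFR, ERBB4, INSR and FGFR4 did not pass the test. The rises were modest, from 1.14-fold for IGF1R to 1.42-fold for IRS1. By limma on log2(FPKM + 1), with Benjamini-Hochberg adjustment over 15869 genes, 5 of 10 were called higher at an adjusted p under 0.05, against 20.9% of all genes tested, and 1 of 10 lower, against 22.9%, so that 6 of 10 changed, against 43.7%. The authors' deposited table calls the same 5 higher and the same 1 lower, against 17.9% and 20.3% of the genes it tests. The median log2 change of the 10 was 0.20, beside 0.00 over all genes tested. In 6 of the 10 the libraries of the groups did not overlap, against 54.7% of all genes, and these 6 were the called genes. Calls over all genes divided into 3312 higher and 3628 lower as deposited, 4588 and 2856 after quantile normalization, and 5468 and 2465 after median centring. The median log2 change over all genes was 0.06 after quantile normalization and 0.10 after median centring. The 5 higher calls were made under each of the 14 alternative settings. In bulk RNA a change in the level per cell and a change in the mix of cells cannot be told apart. The luminal markers moved with these genes, with 8 of 10 higher, none lower and a median log2 change of 0.24, and their part in the result was not tested.

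**Figure D1:**
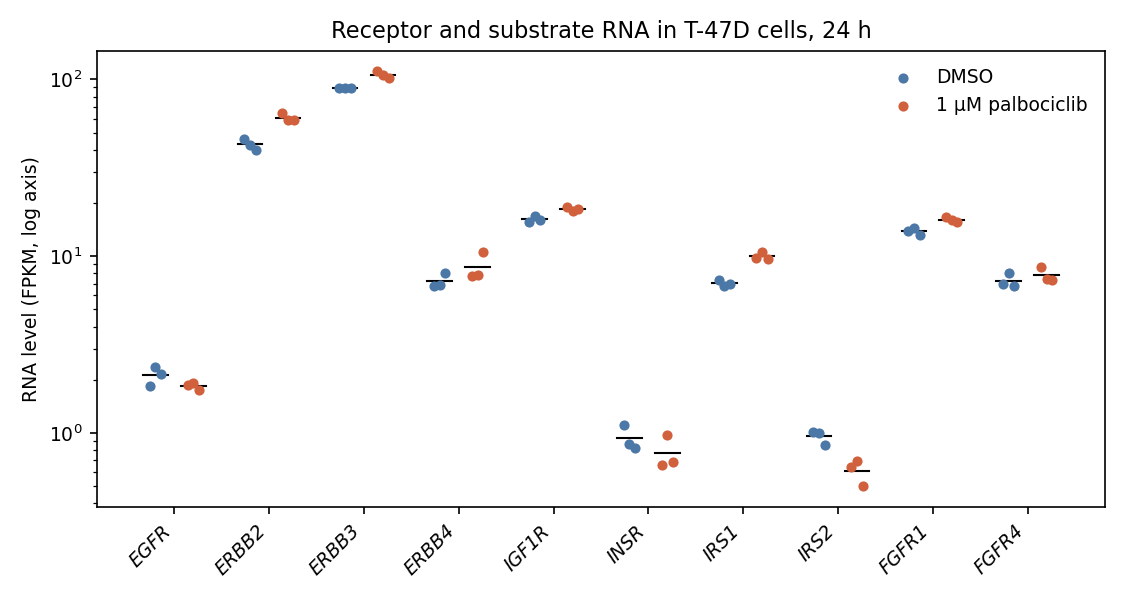
RNA level in FPKM (log axis) of each gene in the 3 DMSO and 3 palbociclib libraries, with a bar at each mean. ERBB3 and ERBB2 lie above 39 FPKM in every library, and INSR and IRS2 lie at or below 1.11 FPKM.

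ERBB3 was the most abundant of the 10 at 89.6 ± 0.57 FPKM with DMSO (mean ± SD, n = 3), above 94.6% of the 19460 genes with deposited levels. It was followed by ERBB2 at 43.0 ± 3.1, IGF1R at 16.2 ± 0.71 and FGFR1 at 13.8 ± 0.62. These 4 did not overlap with each other. FGFR4, ERBB4 and IRS1 followed at 7.24, 7.22 and 7.03 FPKM with overlapping libraries, then EGFR at 2.12. IRS2 and INSR were lowest at 0.96 and 0.93 FPKM and overlapped. With palbociclib the upper 4 kept their order without overlap, and IRS1 stood next at 9.98 ± 0.50 FPKM, still overlapping ERBB4 at 8.67 ± 1.61. The authors' deposited mean normalized counts behind these levels ran from 262 for IRS2 and 479 for INSR to 29854 for ERBB3.

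ERBB2 (ENSG00000141736, chr17:39688094-39728658, plus strand), the receptor amplified in HER2-positive tumours, was at 46.2, 42.8 and 40.0 FPKM in the DMSO libraries and at 64.2, 59.3 and 58.8 in the palbociclib libraries. Every palbociclib library was above every DMSO library. On the log2 scale ERBB2 rose by 0.49 ± 0.06 (SE, limma, adjusted p = 0.000223), and the authors' deposited table gives 0.50 ± 0.06.

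ERBB3 (ENSG00000065361, chr12:56080108-56103505, plus strand), its partner receptor for neuregulins, was at 90.0, 89.9 and 88.9 FPKM with DMSO and at 110.8, 106.0 and 101.8 with palbociclib. The DMSO libraries lay within about 1 FPKM of each other and all below the treated ones. ERBB3 rose by 0.24 on the log2 scale, with an SE of 0.04 (limma, adjusted p = 0.000857).

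ERBB4 (ENSG00000178568, chr2:211375717-212538802, minus strand), a neuregulin receptor with an active kinase, was at 6.80, 6.86 and 7.99 FPKM with DMSO and at 7.68, 7.80 and 10.5 with palbociclib. Palbociclib replicate 3 was the highest library, and the other 2 palbociclib libraries were below DMSO replicate 3. The log2 change was 0.22 with a 95% interval from -0.04 to 0.49 (limma, adjusted p = 0.145). Without palbociclib replicate 3 it was 0.09 (adjusted p = 0.388), while it passed the test after median centring (adjusted p = 0.0417).

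EGFR (ENSG00000146648, chr7:55019017-55211628, plus strand), the receptor for EGF, TGFA and AREG, was at 1.84, 2.38 and 2.15 FPKM with DMSO and at 1.87, 1.92 and 1.76 with palbociclib. The groups overlapped because DMSO replicate 1 was as low as the treated libraries. The log2 change of -0.13 had a 95% interval from -0.32 to 0.06 (limma, adjusted p = 0.247). Leaving out DMSO replicate 1 gave -0.19, leaving out DMSO replicate 2 gave -0.07, and median centring gave -0.03. A pseudocount of 0.1 gave -0.18, and the authors' deposited table gives -0.20 (DESeq2, adjusted p = 0.102).

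The 4 ERBB receptors summed to 141.9 ± 2.9 FPKM with DMSO and 177.4 ± 6.2 with palbociclib, with no overlap between groups. ERBB2 made up 30.3% ± 1.6 of that sum with DMSO and 34.2% ± 0.48 with palbociclib, and ERBB3 made up 63.1% ± 0.94 and 59.8% ± 0.86. The EGFR part was 1.498% ± 0.20 and 1.04% ± 0.05. These 4 measures did not overlap between groups, and each had an exact two-sided permutation p of 0.1, the smallest that 3 against 3 libraries allow. The ERBB4 share overlapped, at 5.09% ± 0.57 and 4.90% ± 1.04.

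IGF1R (ENSG00000140443, chr15:98648539-98964530, plus strand), the receptor for IGF1 and IGF2, was at 15.6, 16.99 and 16.03 FPKM with DMSO and at 19.0, 18.1 and 18.5 with palbociclib. The lowest treated library was above the highest DMSO library by a little over 1 FPKM. IGF1R rose by 0.19 ± 0.05 in log2 units (limma, adjusted p = 0.0114), or by 0.28 after median centring.

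INSR (ENSG00000171105, chr19:7112265-7294414, minus strand), the insulin receptor, was at 1.11, 0.87 and 0.82 FPKM with DMSO and at 0.66, 0.98 and 0.68 with palbociclib. Palbociclib replicate 2 lay among the DMSO libraries. The log2 change was -0.13 with a 95% interval from -0.36 to 0.11 (limma, adjusted p = 0.351), and it was -0.06 without DMSO replicate 1, -0.08 without palbociclib replicate 1, -0.21 without palbociclib replicate 2 and -0.03 after median centring. With a pseudocount of 0.1 it was -0.25, and the authors' deposited table gives -0.28 (adjusted p = 0.193).

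IRS1 (ENSG00000169047, chr2:226731312-226799820, minus strand), a docking protein that carries IGF1R signals to PI3K, was at 7.33, 6.78 and 6.98 FPKM with DMSO and at 9.75, 10.6 and 9.65 with palbociclib. All treated libraries were above all DMSO libraries by more than 2 FPKM. IRS1 rose by 0.45 ± 0.06 in log2 units (limma, adjusted p = 0.000305), and the authors' deposited table gives 0.51 ± 0.06.

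IRS2 (ENSG00000185950, chr13:109752695-109786583, minus strand), its close relative, was at 1.01, 1.00 and 0.86 FPKM with DMSO and at 0.64, 0.69 and 0.50 with palbociclib. Every treated library was below every DMSO library. The log2 change was -0.28 ± 0.09 on the log2(FPKM + 1) scale (limma, adjusted p = 0.0284), which understates a change at this level: with a pseudocount of 0.1 it was -0.58, and the authors' deposited table gives -0.65 (adjusted p = 0.000488). The call was lost after median centring (adjusted p = 0.108) and without DMSO replicate 1 (0.0793), DMSO replicate 2 (0.0817), palbociclib replicate 1 (0.0583) or palbociclib replicate 3 (0.0856). The ratio of IRS1 to IRS2 was 7.24, 6.78 and 8.12 with DMSO and 15.2, 15.3 and 19.3 with palbociclib. These ratios did not overlap (exact two-sided permutation p = 0.1, the smallest possible).

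FGFR1 (ENSG00000077782, chr8:38411143-38468635, minus strand), a receptor often amplified in luminal breast cancer, was at 13.9, 14.4 and 13.2 FPKM with DMSO and at 16.6, 15.97 and 15.7 with palbociclib. The groups did not overlap, and FGFR1 rose by 0.21 ± 0.05 in log2 units (limma, adjusted p = 0.00888).

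FGFR4 (ENSG00000160867, chr5:177086915-177098144, plus strand), the receptor for FGF19 with the cofactor KLB, was at 6.95, 8.01 and 6.77 FPKM with DMSO and at 8.71, 7.46 and 7.35 with palbociclib. DMSO replicate 2 was higher than 2 of the treated libraries. The log2 change of 0.10 had a 95% interval from -0.09 to 0.29 (limma, adjusted p = 0.356), and it was 0.03 without palbociclib replicate 1, 0.06 without DMSO replicate 3, 0.17 without DMSO replicate 2 and 0.20 after median centring. The FGFR1 to FGFR4 ratio was 1.92 ± 0.10 with DMSO and 2.06 ± 0.13 with palbociclib, with overlap.

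**Figure D2:**
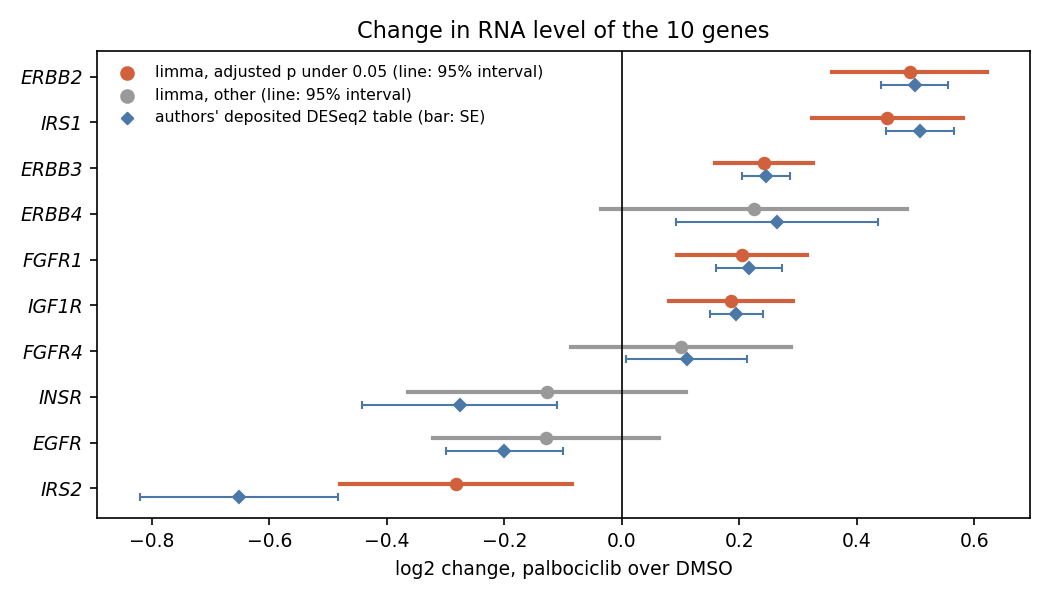
Change in RNA of the 10 genes on the log2 scale, with 95% intervals from limma and, below each, the value and SE of the authors' deposited table. ERBB2 and IRS1 have the largest rises at 0.49 and 0.45, and the IRS2 value of -0.28 lies well to the right of the authors' -0.65.

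Over the 6 libraries, the genes with the pattern most like that of ERBB2 were NCOA3, RBFOX2 and HOXB-AS1, with Pearson r of log2(FPKM + 1) from 0.998 to 0.999. They were the top 3 of 13819 genes compared, of which 63 had an r over 0.99. For IRS2 they were SSNA1, LFNG and EIF3C (r from 0.997 to 0.999), and 11 genes had an r over 0.99. The points share their libraries and the 2 treatments.

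Genes upstream and downstream of the receptors were read from lists by role. Each count of the main fit stands beside its shares over all genes tested, 20.9% higher, 22.9% lower and 43.7% called in either direction. Those shares do not apply to the other scalings. After median centring 5468 of all 15869 genes were higher and 2465 lower, with a median log2 change of 0.10. After quantile normalization 4588 were higher and 2856 lower, with a median of 0.06. Among 5 ERBB ligands tested, 1 rose (20% called): AREG, an EGFR ligand, was at 20.0 ± 0.68 FPKM with DMSO and 24.5 ± 2.4 with palbociclib (limma log2 change 0.28, adjusted p = 0.00975), while EGF, TGFA, HBEGF and NRG4 did not pass the test. Of the 3 insulin and IGF ligands only IGF2 was listed, and it fell, 0.77 to 0.41 FPKM, which was noted after its value was seen. The IGF2 call was lost after median centring (limma, adjusted p = 0.0844) and without DMSO replicate 1 or 2 or palbociclib replicate 1 or 3 (0.0667 to 0.0843). Of 22 FGF ligands, 3 were listed and none reached the level needed for the test. Among 6 further receptors and co-receptors (50% called), FGFRL1, which lacks a kinase domain, rose (log2 0.29), and 2 fell: SDC1, a heparan sulphate co-receptor (log2 -0.53), and FGFR3, named after its value was seen (15.6 to 12.5 FPKM, log2 -0.30). After median centring 3 of the 6 were higher and 2 lower.

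Of 6 tested genes for proteins that hold IGFs outside the cell, or that act on the proteases freeing them, 4 rose and none fell (66.7% called). Their median log2 change was 0.25, beside 0.00 over all genes tested, and after median centring 6 were higher, with a median of 0.35. IGFBP5, an IGF-binding protein, rose by 0.90 in log2 units (limma, adjusted p = 3.28e-08). Its level of 327.7 ± 4.2 FPKM with DMSO and 612.5 ± 3.5 with palbociclib stood well above IGF1R itself in every library. The other 3 risers, named after their values were seen, were STC1 (log2 0.62), STC2 (0.28) and IGFBP4 (0.23).

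Among 15 adaptors and exchange factors, 4 rose and 1 fell (33.3% called), with a median of 0.09, and after median centring 9 rose and none fell. SHC2 rose from a low level (0.90 to 2.01 FPKM), and GAB1, a docking protein for several of the receptors, fell (log2 -0.30, adjusted p = 0.0313). The GAB1 call was lost after quantile normalization (limma, adjusted p = 0.0857), after median centring (0.0960) and without DMSO replicate 1 or 2 or palbociclib replicate 1 or 2 (0.0714 to 0.0996). The other risers, named after their values were seen, were FRS2, through which FGF receptors signal (28.5 ± 0.74 to 35.4 ± 0.56 FPKM, log2 0.30), SHC1 (0.39) and CRKL (0.22).

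In the RAS-MAPK cascade 4 of 12 fell and none rose (33.3% called), with a median of -0.06, but after quantile normalization 4 fell and 1 rose (median 0.02) and after median centring 2 fell and 2 rose (median 0.04). HRAS, at 38.7 ± 2.8 FPKM with DMSO and 26.6 ± 0.82 with palbociclib, fell by 0.52 in log2 units (limma, adjusted p = 0.000120). In the PI3K-AKT-mTOR cascade 3 of 20 rose and 4 fell (35% called), with a median of 0.00, and 5 rose and 1 fell after median centring. It had 2 fallers without DMSO replicate 2, and 2 risers without DMSO replicate 1 or palbociclib replicate 2 or 3. PIK3R1, a regulatory subunit of PI3K, rose (46.8 ± 1.2 to 60.7 ± 3.8 FPKM, log2 0.37), and RHEB, the GTPase that activates mTORC1, fell by 0.91 on the log2 scale (55.4 ± 2.7 to 29.0 ± 0.51 FPKM, adjusted p = 6.94e-07).

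Among 29 feedback and negative regulators 6 rose and 8 fell (48.3% called, median 0.07), and 10 rose and 3 fell after median centring, while 4 fell without palbociclib replicate 1 and 5 without palbociclib replicate 2. PIK3IP1, an inhibitor of PI3K, rose from 1.442 to 2.55 FPKM, and DUSP7, a MAP kinase phosphatase, fell from 2.23 to 1.33. Among 14 FOXO factors and genes commonly listed as FOXO targets 5 rose and 1 fell (42.9% called, median 0.11; 8 higher and 1 lower after median centring), with CITED2 (log2 0.77) the largest rise and SOD2 (-0.35) the fall. Among 18 other receptor tyrosine kinases tested 6 rose and 4 fell (55.6% called), with a median of 0.04, and 7 rose and 1 fell after median centring. Without 1 library, 3 to 6 of these kinases were higher and 1 to 3 lower, with 3 higher without DMSO replicate 1 or palbociclib replicate 1, and 1 lower without DMSO replicate 1 or 2 or palbociclib replicate 2. LMTK3 had the largest rise among those that met the naming rule (log2 0.50) and TYRO3 fell most (12.1 ± 1.3 to 6.77 ± 0.74 FPKM, log2 -0.75).

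**Figure D3:**
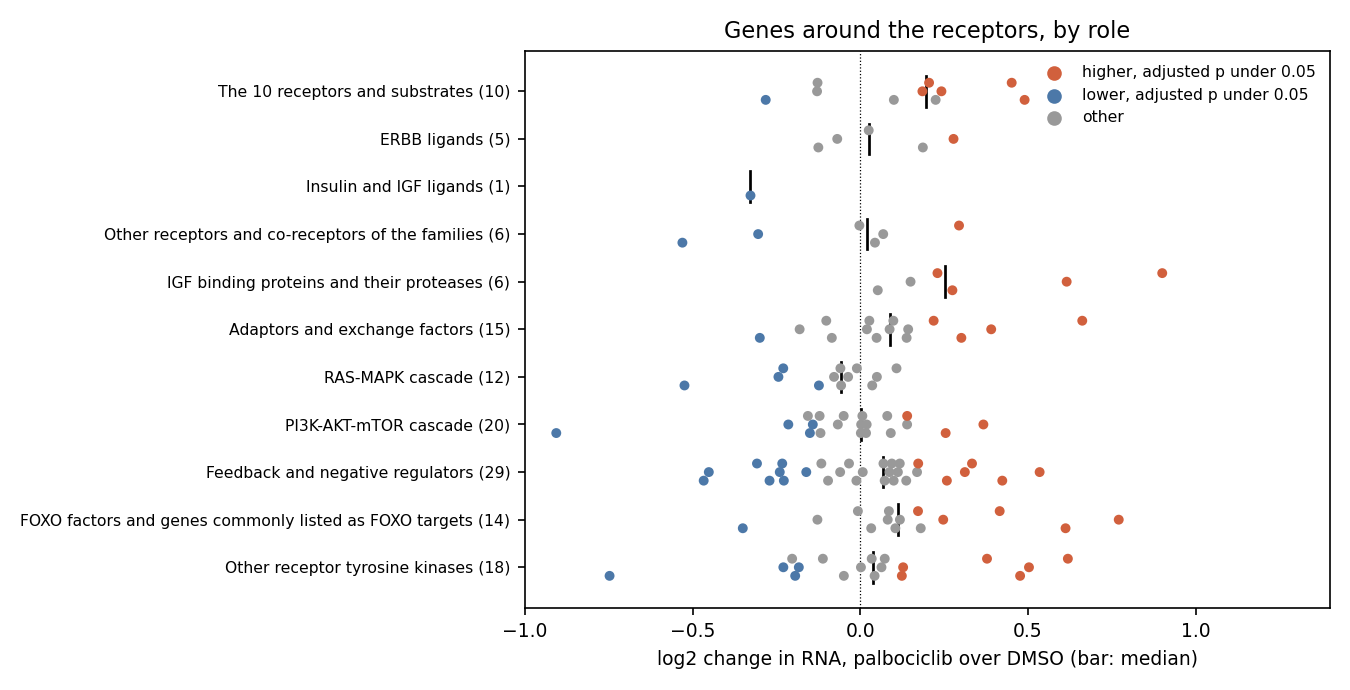
Change in RNA on the log2 scale for each tested gene of the 10 receptors and substrates and of the lists around them, with the number tested in parentheses, a bar at the median and colour by call. IGFBP5 at 0.90 and RHEB at -0.91 are the points farthest out.

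Chromatin accessibility was read as ATAC-seq reads in 38121 peaks. In the genes and 10 kb to either side there were 47 peaks, of which 38 overlapped a gene body. By gene they numbered 15 at IGF1R, 11 at ERBB4, 5 at FGFR1, 4 each at EGFR, ERBB2 and IRS1, 2 at ERBB3, 1 each at INSR and IRS2, and none at FGFR4. By edgeR's quasi-likelihood test with adjustment over all peaks, 3 of the 47 were higher with palbociclib, against 5.41% of all peaks, and 2 were lower, against 6.46%. Of the 47, 11 had groups that did not overlap, against 28.3% of all peaks. The median log2 change was 0.03. Over all peaks the calls were 2061 higher and 2464 lower, and 2573 higher and 2030 lower with library totals as the scale.

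The peak with the clearest rise lay inside IRS1 at chr2:226795705-226796347, 3473 bases after the start. It held 30.9, 35.9 and 33.3 CPM (reads scaled to the library's total in peaks, with TMM factors) with DMSO and 42.9, 48.5 and 44.7 with palbociclib. The groups were well apart, and the log2 change was 0.44 ± 0.07 (edgeR, adjusted p = 1.95e-05). The peak was also called under every alternative run. The IRS1 promoter peak at chr2:226800712-226801550, which lies 892 bases before the start and overlaps the neighbouring gene RHBDD1, had a log2 change of 0.08 (adjusted p = 0.508).

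The clearest fall was at chr17:39737608-39738473, downstream of ERBB2 and overlapping its neighbour GRB7, an adaptor gene. It held 135.4, 134.8 and 132.6 CPM with DMSO and 112.9, 107.3 and 108.3 with palbociclib. The log2 change was -0.29 ± 0.05 (edgeR, adjusted p = 1.29e-05), and this call too was made under every alternative in which the peak was counted. ERBB2 RNA rose, and GRB7 RNA was at 15.2 FPKM with DMSO and 15.7 with palbociclib (log2 0.05, limma, adjusted p = 0.612). For the peak inside ERBB2 at chr17:39705778-39706337 the value was 0.05 (adjusted p = 0.667).

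The other 3 called peaks were less stable. A peak inside EGFR at chr7:55043511-55044529 held 13.6, 14.4 and 11.2 CPM with DMSO and 15.4, 16.5 and 18.2 with palbociclib (log2 0.35, edgeR, adjusted p = 0.0364). A peak inside FGFR1 at chr8:38449601-38450380 held 17.5, 18.8 and 19.7 and then 22.6, 22.5 and 23.5 (log2 0.29, adjusted p = 0.0339). A peak inside ERBB4 at chr2:211398754-211398975 held 7.94, 8.23 and 6.69 and then 5.09, 6.12 and 5.13 (log2 -0.49, adjusted p = 0.0398). In each the groups did not overlap, and none reached an adjusted p under 0.05 by DESeq2, which gave 0.107, 0.0908 and 0.110. The EGFR call was also lost without DMSO replicate 1 or 3 or palbociclib replicate 2 or 3 (adjusted p from 0.0592 to 0.251), the FGFR1 call without any 1 library (0.0545 to 0.124), and the ERBB4 call without DMSO replicate 1 or 2 or palbociclib replicate 1 or 3 (0.0941 to 0.153) and with library totals (0.0539).

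A peak within 1 kb of the start was present for EGFR and IRS1, which is 2 of the 8 genes with a listed start. Among all tested genes with a listed start it was 44.0% of 10994. ERBB3 and FGFR1 had no listed start, and none was found at the outer end of either gene. Peaks at starts inside a gene that are not listed were not counted. The EGFR promoter peak at chr7:55018620-55019683 covers the promoter sequence printed above, and its log2 change of 0.10 did not pass the test (edgeR, adjusted p = 0.503). IGF1R, which has the most peaks of the 10, had none called, with log2 changes from -0.22 to 0.35.

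**Figure D4:**
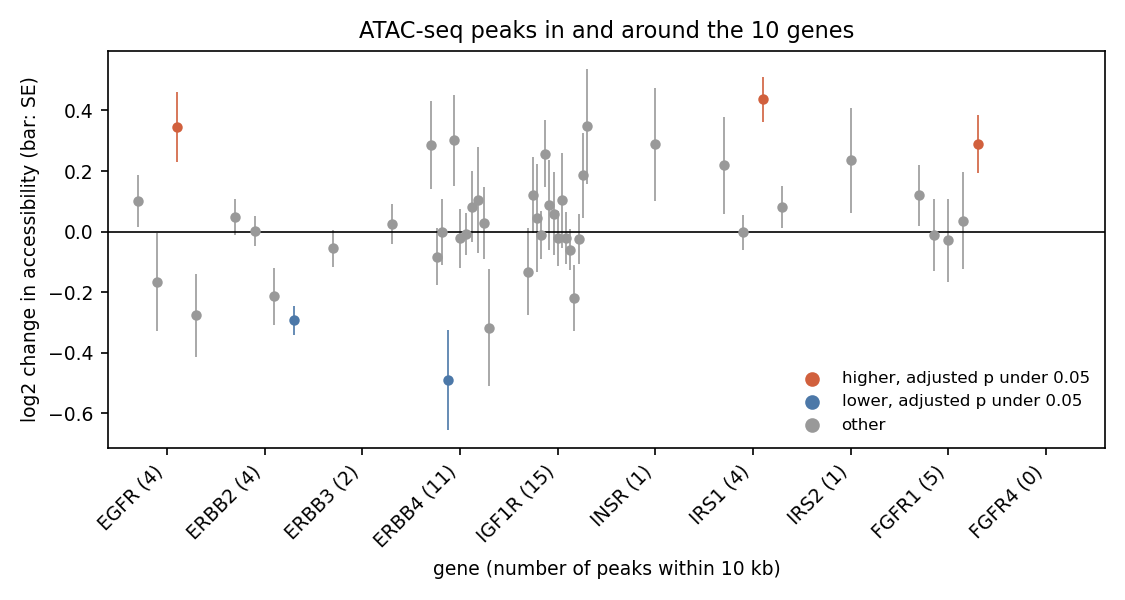
Change in accessibility (log2, with SE) of each peak in or within 10 kb of the 10 genes, in order along the chromosome within each gene, with colour by call and the number of peaks in parentheses. The IRS1 peak at 0.44 and the ERBB2 neighbour peak at -0.29 have short error bars, and the called ERBB4 peak at -0.49 a long one.

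Splicing was read from 141 listed events in 8 of the genes, with none listed for IRS1 and IRS2, whose coding sequence lies nearly all in a single large exon. Of these, 45 passed the floor set on reads (20 or more on average in a library, with 5% or more of them from the rarer form), and many share exons. None was called by edgeR at an adjusted p under 0.05, beside 0.35% of all 37445 events tested, and 6 had an unadjusted p under 0.05, beside 8.53%. With no floor on the rarer form, 0 of 131 events were called, beside 0.053% of all. Adjusted p-values of the 45 ran from 0.246 upward. By the authors' deposited FDR 1 of 141 passed 0.05, against 2.47% of all listed events.

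That event was a 63-base exon of IGF1R (chr15:98824180-98824242). Inclusion was 2.05%, 2.48% and 2.42% with DMSO and 3.10%, 8.13% and 6.82% with palbociclib, with 19 inclusion reads against 486 skipping reads over the DMSO libraries and 55 against 535 over the palbociclib libraries. The groups did not overlap, and 2 of the treated libraries were far above the third. The authors' deposited FDR was 0.0127 and edgeR gave an adjusted p of 0.287.

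In ERBB2 a 194-base exon (chr17:39694988-39695181), listed as an alternative to a 152-base exon further along the gene, was included at 28.0%, 27.9% and 30.9% with DMSO and at 17.8%, 21.3% and 25.01% with palbociclib (edgeR, adjusted p = 0.298). A 48-base exon (chr17:39719787-39719834), whose loss gives the form known as delta-16, was skipped in 12 reads over the DMSO libraries, beside 1071 inclusion reads, and in 45 beside 1679 over the palbociclib libraries. Inclusion was 98.3% ± 1.1 and 96.2% ± 0.70 without overlap, with an authors' deposited FDR of 0.0641. Its minor form, 2.03% of reads, was under the 5% needed for the main test, and with no such filter edgeR gave an adjusted p of 0.763. Both events were singled out after their values were seen.

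ERBB4 has 2 well-studied choices. The CYT exon of 48 bases (chr2:211387945-211387992), which carries a PI3K binding site, was included at 64.0% ± 7.6 with DMSO and 68.5% ± 5.2 with palbociclib (edgeR, adjusted p = 0.940). At the juxtamembrane choice, the 45-base exon (chr2:211657950-211657994) was used in place of the 75-base exon (chr2:211657754-211657828) at 24.1%, 16.6% and 30.5% with DMSO and at 17.2%, 16.1% and 12.03% with palbociclib. DMSO replicate 2 lay among the treated libraries (adjusted p = 0.793). In every library most of these reads thus came from the 75-base exon, which gives the form that a surface protease can cleave. Read as a cassette exon, the 45-base exon was included at 29.1% ± 7.6 and 19.4% ± 5.9 (adjusted p = 0.713).

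FGFR1 had the most events tested, 19. Of those given here, only the exon of the first immunoglobulin-like loop was in the rule for naming events. The 151-base exon of the third immunoglobulin-like domain (chr8:38423025-38423175, the IIIb choice) was used in place of the 145-base exon (chr8:38421797-38421941, IIIc) at 55.5%, 51.0% and 43.3% with DMSO and at 63.8%, 58.8% and 57.9% with palbociclib. The groups did not overlap, and the adjusted p by edgeR was 0.318. The 267-base exon of the first immunoglobulin-like loop (chr8:38429682-38429948) was included at 43.8% ± 1.7 and 41.0% ± 3.4 (adjusted p = 0.933), so that RNA with and without it was present in both groups. A splice site that adds 6 bases near the membrane (exon at chr8:38419533-38419735) was used at 93.1%, 90.3% and 92.6% with DMSO and at 89.3%, 85.3% and 89.0% with palbociclib, without overlap (edgeR, adjusted p = 0.791).

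The 36-base exon of INSR (chr19:7150497-7150532), which separates the A form without it from the B form with it, had 5, 3 and 3 inclusion reads with DMSO and 2, 2 and 1 with palbociclib, beside 19 skipping reads in each group. Inclusion, scaled for the length of each form, was 42.3%, 21.6% and 26.8% with DMSO and 14.01%, 19.6% and 15.5% with palbociclib, so that the groups did not overlap. With a mean of 9 reads per library the event was under the floor of 20 and outside the edgeR test, and the authors' deposited p-value was 0.146 (FDR 1). In ERBB3 a 183-base intron was retained at 2.72% ± 0.38 and 3.84% ± 0.90 (edgeR, adjusted p = 0.246), the smallest adjusted p of the 45 events, with overlap between groups. EGFR had 1 event and FGFR4 had 3 tested, with adjusted p-values of at least 0.911.

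**Figure D5:**
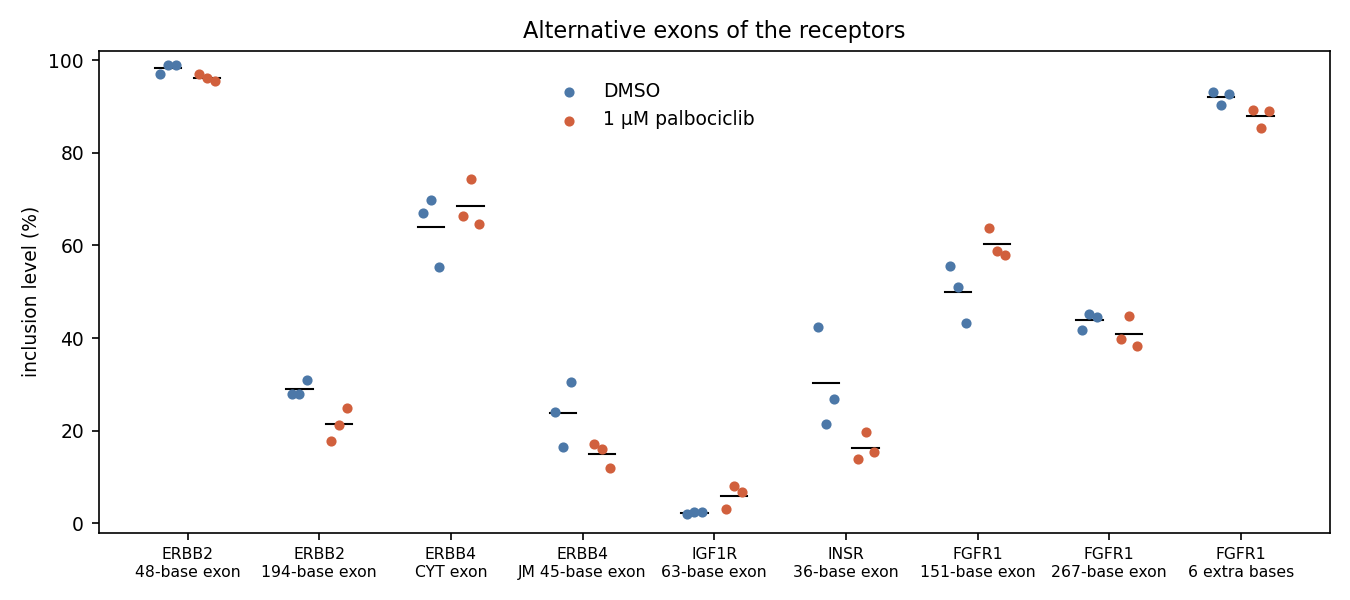
Inclusion level in percent of 9 named alternative exons or sites in each library, with a bar at the mean of 3. Among those whose groups do not overlap are the FGFR1 151-base exon and the ERBB2 194-base exon, and the INSR points rest on 9 reads per library on average.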

How the data were processed

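For RNA, the submitters' processing notes list fastp 0.23.2, Salmon 1.10.2, DESeq2 1.44.0, STAR 2.7.10b, SAMtools 1.16 and GRCh38, without the role of each. The splicing caller's version and annotation are not given in the sources used here. The authors deposited FPKM per gene and library, and a DESeq2 table with a mean normalized count signal over all libraries, log2 fold changes and p-values. For splicing events the authors deposited inclusion and skipping counts, inclusion levels as a fraction, differences as a score, and an FDR (p-value). For ATAC-seq the submitters' processing notes list Bowtie2 2.5.4-6 and MACS3 3.0.3-0, and the deposited counts of reads per peak were made with featureCounts 2.0.6, per the file headers. FPKM carry no library total, so RNA depth is known only through the mean normalized counts.

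Computed here were limma 3.58.1 (R 4.3.3, intensity trend) on log2(FPKM + 1) for genes with a mean of at least 0.5 FPKM, and edgeR 4.0.16 (quasi-likelihood, TMM) on the deposited counts of peaks and of splicing forms, the latter with a term per library. Peaks belonged to a gene within 10 kb of it, in RefSeq GRCh38.p14. Peaks were placed relative to whole genes, and exon names rest on exon length and order. DESeq2 1.42.0 was an alternative. All adjustments ran over all features, within each event type for splicing. Scripts were tested on simulated data. The groups come from the labels, 3 libraries each, which the series calls biological replicates. The genes and lists were chosen with earlier results of these data known. All 10 genes are named with their values. From each list, the called genes with the largest rise and fall are named. Only genes with a mean of at least 1 FPKM and groups that do not overlap were eligible. Promoter peaks and called peaks are named. For splicing the rule covers called events, the INSR exon, the ERBB4 choices and the FGFR1 exon of the first immunoglobulin-like loop. The other splicing events were named outside this rule. Values of some genes in the lists are not reported here.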

Additional observations from a re-analysis of the deposited data

How the results depend on the processing

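The count of genes called higher was 5 or 6 in all 14 alternatives (6 after median centring and with the replicate block, where ERBB4 joined). The count called lower, IRS2 alone, was 0 with a mean of at least 5 FPKM, where IRS2 is not tested, 0 after median centring, and 0 to 1 without 1 library. Peaks called higher were 1 by DESeq2's Wald test and 1 to 2 without 1 library. Peaks called lower were 1 with library totals, 1 by DESeq2's Wald test, 1 within gene bodies only, where the peak beside ERBB2 is not counted, and 1 to 2 without 1 library. Splicing calls were 0 by edgeR in each setting and 1 by the authors' deposited FDR. Where a cause is not given by the setting itself, the cause was not tested. No direction of the 10 genes or of the called and promoter peaks reversed in these settings. The filter on low peak counts removed no peak, so leaving it out changed nothing.

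The replicate numbers are not stated to pair the libraries. Same-numbered libraries correlated in their deviations from group means at 0.11, -0.01 and 0.09 for RNA and at 0.01, 0.04 and -0.03 for ATAC. Differently numbered libraries ran from -0.14 to 0.05 for RNA and from -0.07 to 0.06 for ATAC. With 3 libraries per group these values cannot decide whether the libraries were paired. With a replicate block the counts were 6 genes higher and 1 lower, 3 peaks higher and 2 lower, and 0 splicing events, and ERBB4 had a log2 change of 0.22 (limma, adjusted p = 0.0282). Precision is limited by 3 libraries per group, by low counts for IRS2 and INSR, and by few junction reads in INSR and ERBB4.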
